A study of Homo sapiens with 8 samples.

Results

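The BCL2 family decides whether the mitochondrial outer membrane stays intact. Pro-survival members hold the effectors in check, the effectors form pores that release cytochrome c, and BH3-only proteins link stress signals to both groups by binding pro-survival members or activating effectors. In keratinocytes and in the carcinomas derived from them, the balance between these groups sets how readily a cell enters the mitochondrial pathway of apoptosis. AGO2 is the protein of the RNA-induced silencing complex that holds a miRNA and the mRNAs paired to it, so mRNAs that the complex carries are recovered with AGO2. Recovery alone does not show that an mRNA was carried.

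The 10 family genes described here were a chosen list of 3 pro-survival members (BCL2L1, MCL1 and BCL2L2), 2 effectors (BAX and BAK1) and 5 BH3-only members (BID, BAD, BBC3, PMAIP1 and BCL2L11). They were found through the RefSeq accession of each array probe, and 14 probes matched, out of 58201 probes and 22439 gene symbols on the array. Each of the 14 exceeded background clearly on every one of the 8 arrays, so no member was lost to the filter that left 16808 probes to be tested. Genes with several such probes are represented by the brightest one, and the dimmer ones are given beside it.

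The arrays came from an AGO2 RIP-chip experiment in A431 cells, an established line of cutaneous squamous cell carcinoma. The cells were transfected with 10 nM of a double-stranded mimic of miR-634 or of a negative control, miR-NC, and harvested at 24 h, and for each mimic the RNA precipitated with AGO2 (RIP) and the input RNA were hybridized to 2 arrays each. This gives 4 groups, input and RIP of cells given miR-NC and input and RIP of cells given miR-634. The labels list normal rabbit IgG for the input samples, whereas the study's methods describe total RNA, and they are called input here. The sources do not say whether the 2 arrays of a group came from separate transfections, so p-values measure only the spread between these arrays, which may be technical. All 8 markers of A431 cells fixed for the check (KRT5, KRT14, KRT17, KRT6A, TP63, EGFR, CDH1 and DSP) were measured on every array. Of 9 markers of fibroblasts, immune cells, endothelium and liver, 8 had a probe (CD68 had none), and only VWF was measured on every array. COL1A1 and PTPRC were well above background on at most 4 arrays. CDH1, the adhesion protein of epithelial cells, was itself at -1.02 (log2) in the input of miR-634 cells relative to miR-NC cells (limma, adjusted p = 0.000488). In that comparison 4 of the 8 markers were called higher and 1 lower, beside 8.42% and 9.83% of all probes. The higher calls of TP63, EGFR and DSP were lost under the spike-in scaling described below. In bulk RNA, fewer cells of a kind and less RNA per cell cannot be told apart.

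The mimic carried the sequence below, which RefSeq places, as the mature miRNA, at chr17:66787132-66787153 on the plus strand of GRCh38.p14, within the span of PRKCA. It is shown because the experiment rests on it; capitals mark the seed, bases 2 to 8, whose exact match in a target mRNA reads UGCUGGU.
hsa-miR-634: aACCAGCAccccaacuuuggac
Whether the 10 mRNAs hold that match was not tested, since no transcript sequence was used here.

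Spots well above background made up 45.6% to 45.8% of each input array, 33.6% and 34.5% of the miR-NC RIP arrays and 40.0% of both miR-634 RIP arrays, and no spot was saturated. Levels are log2 intensities relative to the 75th percentile of the array, enrichment is the log2 RIP/input difference of these levels, and the fold change of enrichment is the enrichment in miR-634 cells over that in miR-NC cells. Over the 16808 probes tested, the median of this fold change was -0.26 (log2), so a value near -0.26 is typical of them rather than a departure. Without the filter on dim probes the median was -0.75 over 58179 probes. The zero of every RIP comparison depends on the scaling. Scaled on 8 spike-in probes, which detect control RNAs added at labeling, the median moved to 0.79, because these probes lay 1.08 to 1.56 above the 75th percentile on input arrays, 3.52 and 3.59 on miR-NC RIP arrays and 2.74 and 2.76 on miR-634 RIP arrays. All arrays were on 1 slide, inputs in 1 row and RIP samples in the other, with miR-NC and miR-634 in separate columns, so position and group cannot be told apart.

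Among the 10 members, the fold change of enrichment was higher in miR-634 cells for BCL2L1, BCL2L2 and BID, lower for MCL1, BAX, BAK1, BAD, PMAIP1 and BCL2L11, and not called for BBC3. The largest rise was that of BCL2L1, which encodes BCL-xL, at 2.08-fold, and the largest fall that of BAX, to 0.428-fold. These 9 calls of 10 stand beside 68.4% of all probes called by limma at an adjusted p below 0.05, 24.9% higher and 43.5% lower, so being called was common on this array. Over all probes the split of 4189 higher and 7315 lower became 5554 and 4653 after centering on the median of all probes, and 10194 and 327 on the spike-in scale. With that centering, the same 3 members stayed higher while only BAX and BCL2L11 stayed lower, and on the spike-in scale 5 members were higher and 0 lower. With the spike-in scale BAX still had the lowest value of the 10, -0.18 (adjusted p = 0.583), and BCL2L1 the highest.

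By role, 2 pro-survival members were higher and 1 lower, with a median of 0.34. Of the 7 pro-death members 1 was higher, 5 were lower and 1 was not called, with a median of -0.50. The 2 ranges overlapped, from -0.53 to 1.05 for pro-survival and from -1.23 to 0.43 for pro-death members, because MCL1 lay among the falling pro-death genes and BID among the rising pro-survival ones. Over all probes tested, 24.9% were higher and 43.5% lower. After centering on their median, only BAX and BCL2L11 of the pro-death members stayed lower. Among other family genes, described below, the effector-like BOK and the BH3-only HRK and BIK were called higher. BCL2A1 (-0.60), BCL2L15 and BNIP3L were called lower. The counts describe these 10 genes, not the whole family, and were given no test of role.

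**Figure D1:**
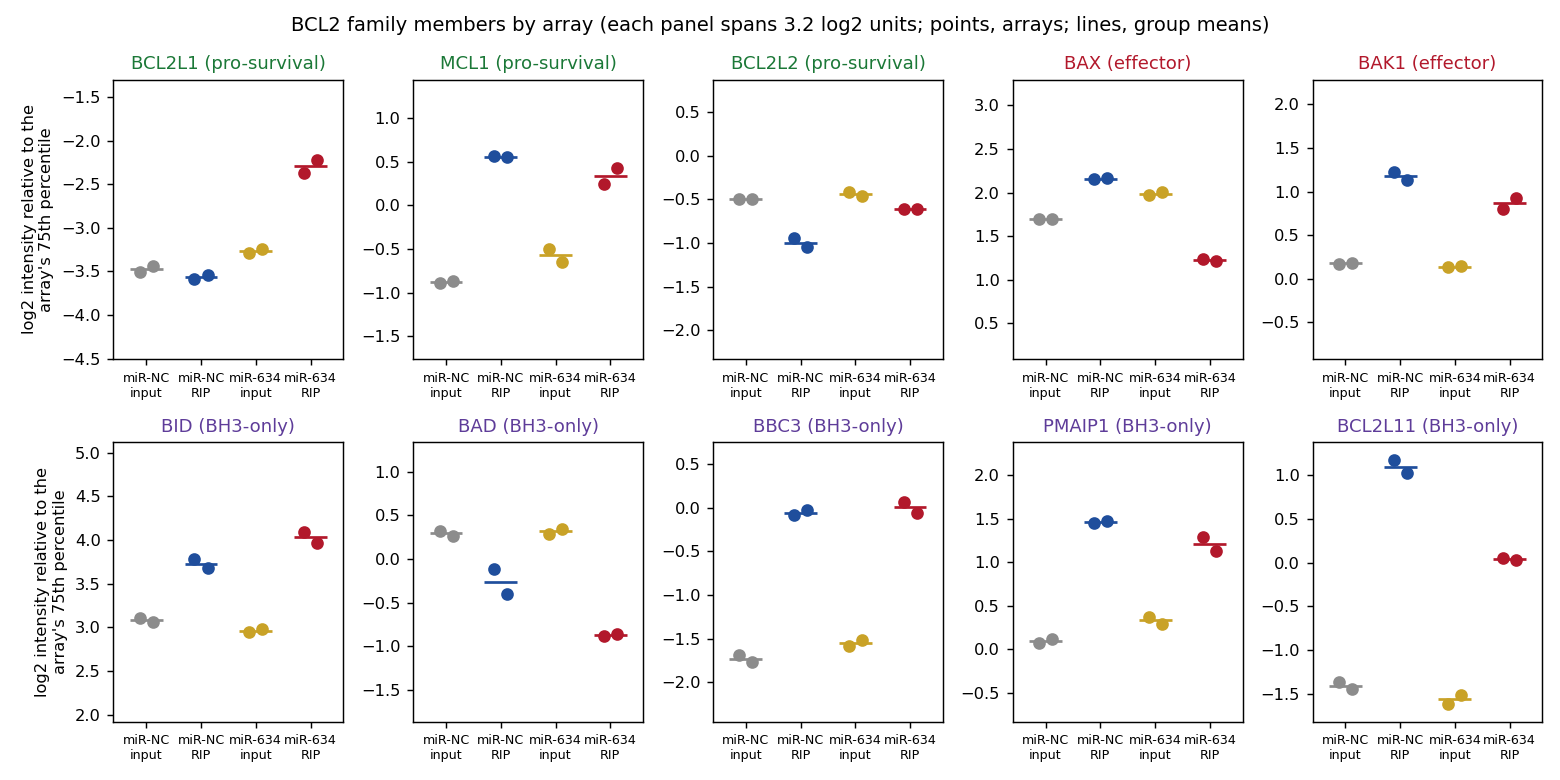
Level of each of the 10 BCL2 family members on the 8 arrays, as log2 intensity relative to the 75th percentile of the array; points are arrays, lines are group means, and every panel spans the same number of log2 units. BCL2L1 stood highest in miR-634 RIP, at -2.37 and -2.22, and BAX lowest there, at 1.24 and 1.22; RIP levels relative to input depend on the scaling, and on the spike-in scale the BAX fall was not called.

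BCL2L1 (NM_138578) encodes BCL-xL, which binds and restrains BAX, BAK and BH3-only proteins. Its level was -3.51 and -3.44 in miR-NC input and -3.59 and -3.54 in the matching RIP, against -3.28 and -3.24 in input and -2.37 and -2.22 in RIP after miR-634. The miR-634 RIP arrays lay clear of the other 6, and the remaining groups followed closely, miR-634 input above miR-NC input and miR-NC input above miR-NC RIP, without overlap, although neither of these smaller steps was called. Enrichment was -0.09 ± 0.07 (SE, n = 2 per group) in miR-NC cells, not called (adjusted p = 0.263), and 0.96 ± 0.07 in miR-634 cells (adjusted p = 1.53e-05), though the latter was -0.43 on the spike-in scale. The fold change of enrichment was 1.05 ± 0.09 (adjusted p = 0.000132), or 1.31 above the median of all probes. That value exceeded 88.7% of all probes tested. It came from the RIP arrays, where BCL2L1 rose 2.40-fold, whereas its input change of 0.21 was not called (adjusted p = 0.0789).

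MCL1 (NM_021960) is a short-lived relative of BCL-xL that binds BAK, BIM and NOXA. Its level was -0.89 and -0.87 in input and 0.57 and 0.55 in RIP with miR-NC, and with miR-634 it was -0.50 and -0.64 in input and 0.25 and 0.43 in RIP. RIP arrays were thus higher than input arrays in both kinds of cells on this scale, with the gap narrower after miR-634. MCL1 moved opposite ways in the 2 RNA pools: input rose by 0.31 ± 0.08 (adjusted p = 0.0417) and RIP fell by 0.22 ± 0.08 (SE on the same scale, adjusted p = 0.0383). Both of these calls were at the margin: the input call was lost without any 1 of 6 arrays, with adjusted p up to 0.188, and the RIP change was 0.02 once centered on all probes. The fold change of enrichment, -0.53 ± 0.11 (adjusted p = 0.00537), was 0.27 below the median of all probes, was no longer called when centered there (adjusted p = 0.0767), and turned to 0.52 on the spike-in scale.

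BCL2L2 (NM_004050) encodes BCL-w, a pro-survival member with a structure like that of BCL-xL. With miR-NC its level was -0.49 on both input arrays and -0.95 and -1.04 in RIP, and with miR-634 it was -0.41 and -0.46 in input and -0.61 on both RIP arrays. Input levels of the 2 kinds of cells nearly met, and RIP was below input in each. Enrichment went from -0.51 ± 0.05 to -0.17 ± 0.05, a fold change of 0.34 ± 0.08 (adjusted p = 0.00713), carried by a RIP change of 0.39 (adjusted p = 0.000612) with an input change of 0.05 (adjusted p = 0.544). The depletion in miR-634 cells was not called when centered on all probes, at -0.02. The reference also lists a read-through gene, BCL2L2-PABPN1, so this signal cannot be assigned to BCL2L2 alone.

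BAX (NM_138764), the effector that moves from the cytosol to mitochondria when activated, had the largest fold change of enrichment among the pro-death members when each gene is represented by its brightest probe. The main probe, printed on 10 spots that were averaged, read 1.70 and 1.69 in miR-NC input and 2.15 and 2.17 in the matching RIP, against 1.97 and 2.0 in input and 1.24 and 1.22 in RIP after miR-634. The 4 groups were separate from each other, in descending order RIP with miR-NC, input with miR-634, input with miR-NC, and RIP with miR-634. Input was 1.23-fold higher in miR-634 cells (0.29 ± 0.04, adjusted p = 0.00834), a call lost without any 1 of 3 of the 4 input arrays (adjusted p from 0.0613 to 0.0649), while RIP was 0.524-fold (-0.93 ± 0.04, adjusted p = 5.11e-06). Enrichment therefore changed sign, from 0.46 ± 0.04 (adjusted p = 0.000101) in miR-NC cells to -0.76 ± 0.04 (adjusted p = 6.45e-06) in miR-634 cells, although with spike-in scaling it was below 0 in both. The fold change of enrichment, -1.23 ± 0.06 (adjusted p = 1.19e-05), was 0.96 below the median of all probes, and 5.19% of probes had a lower value.

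A dimmer BAX probe for another transcript (NM_004324) gave a smaller value, and the difference between the probes was not tested. It read -3.86 and -3.67 in input and -3.23 and -3.15 in RIP with miR-NC, and with miR-634 it was -3.55 and -3.66 in input and -3.75 and -3.47 in RIP. Only the miR-NC RIP arrays stood clear of the others. Its fold change of enrichment was -0.57 ± 0.16 (adjusted p = 0.0175), its enrichment 0.57 with miR-NC and about 0 with miR-634 (adjusted p = 0.997), and its input change of 0.16 was not called (adjusted p = 0.39). The sign change of enrichment was thus called for the brighter probe alone.

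BAK1 (NM_001188) encodes BAK, the effector that sits in the mitochondrial outer membrane. Its level was 0.17 and 0.18 in miR-NC input and 1.23 and 1.13 in the matching RIP, against 0.13 and 0.15 in input and 0.80 and 0.93 in RIP after miR-634. The input arrays barely separated, with a change of -0.04 (adjusted p = 0.723), and RIP exceeded input in both kinds of cells on this scale. Its fold change of enrichment, -0.28 ± 0.09 (limma, adjusted p = 0.0314), was typical of the probes tested. Centered on all probes it was -0.01 (adjusted p = 0.901), and on the spike-in scale it was 0.77. Over 21 settings without spike-ins it ran from -0.34 to -0.01. A processed pseudogene, BAK1P1, is listed in the reference and could share signal with this probe.

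**Figure D2:**
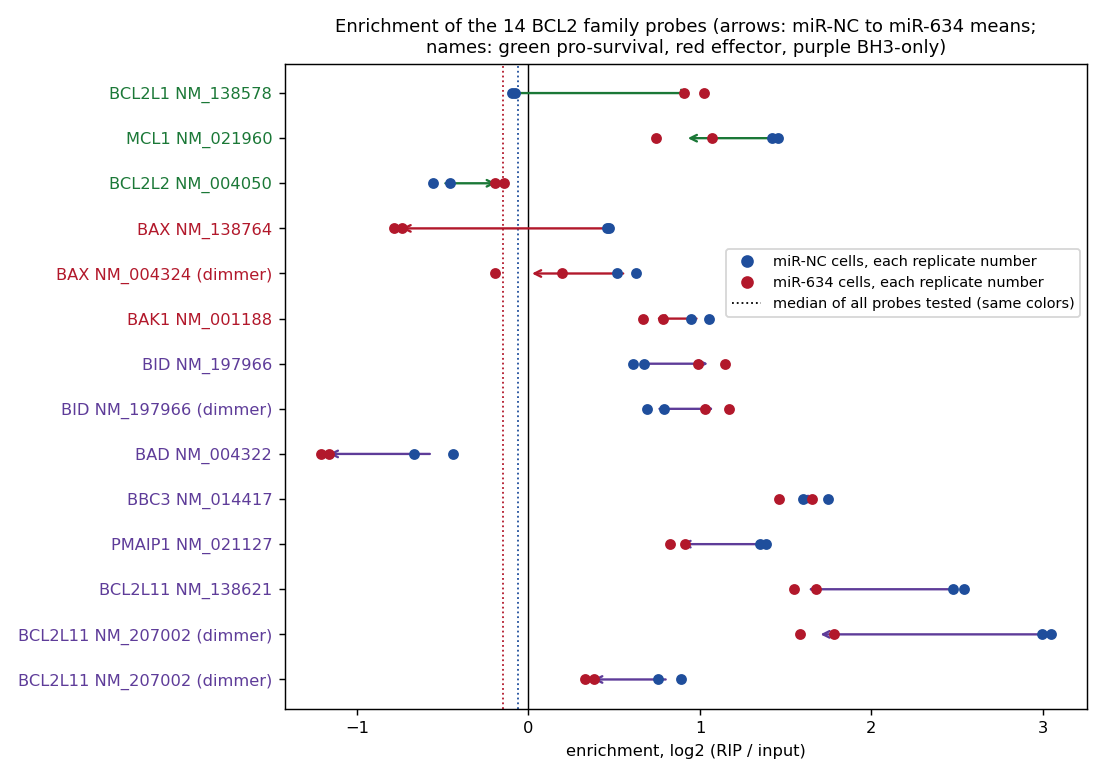
Enrichment (log2 RIP/input) of the 14 probes in miR-NC cells (blue) and miR-634 cells (red). Points are the RIP and input arrays of the same replicate number, which the sources do not describe as paired. Arrows join group means, dotted lines mark the medians of all probes, and "dimmer" marks probes that do not represent their gene. The bright BAX probe crossed from 0.46 to -0.76 and BCL2L11 (NM_138621) moved from 2.51 to 1.61; with spike-in scaling every member's enrichment in miR-NC cells except that of BCL2L11 was below 0.

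BID links death receptors to mitochondria once cleaved by caspase-8, and it was the 1 pro-death member to gain enrichment. The main probe (NM_197966) read 3.11 and 3.07 in input and 3.79 and 3.68 in RIP with miR-NC, and with miR-634 it was 2.95 and 2.98 in input and 4.09 and 3.97 in RIP. The miR-634 RIP arrays were highest and the miR-634 input arrays lowest, with no overlap between groups. RIP rose by 0.30 ± 0.07 (adjusted p = 0.00568), input changed by -0.13 ± 0.07 (adjusted p = 0.235), and enrichment went from 0.64 to 1.07, both below 0 on the spike-in scale. The fold change of enrichment was 0.43 ± 0.09 (adjusted p = 0.00655), and a second probe for the same transcript gave 0.36 with an input change of -0.02 (adjusted p = 0.813).

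BAD (NM_004322), a BH3-only protein that growth factor kinases switch off by phosphorylation, was low in RIP in both kinds of cells. Its level was 0.32 and 0.26 in miR-NC input and -0.12 and -0.41 in the matching RIP, against 0.28 and 0.35 in input and -0.88 and -0.86 in RIP after miR-634. Input overlapped between the 2 kinds of cells, with a change of 0.02 (adjusted p = 0.893), while the RIP arrays did not. Enrichment fell from -0.55 ± 0.09 to -1.19 ± 0.09, a fold change of -0.63 ± 0.13 (adjusted p = 0.00582) that missed the threshold when centered on all probes (-0.37, adjusted p = 0.0513) and was 0.42 on the spike-in scale. The 2 miR-NC RIP arrays differed more than those of any other group of this probe.

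BBC3 (NM_014417) encodes PUMA, which binds all pro-survival members. Its level was -1.69 and -1.77 in input and -0.09 and -0.02 in RIP with miR-NC, and with miR-634 it was -1.59 and -1.52 in input and 0.06 and -0.06 in RIP. RIP exceeded input by a wide margin in both kinds of cells on this scale, and the RIP arrays of the 2 kinds of cells overlapped. Enrichment was 1.67 with miR-NC and 1.56 with miR-634, and the fold change of enrichment, -0.12 ± 0.09, was not called (adjusted p = 0.29), with a sign that depended on the scaling. The input change of 0.18 was not called either (adjusted p = 0.114).

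PMAIP1 (NM_021127) encodes NOXA, which binds MCL1. Its level was 0.07 and 0.12 in miR-NC input and 1.45 and 1.47 in the matching RIP, against 0.37 and 0.30 in input and 1.29 and 1.12 in RIP after miR-634. As for its partner MCL1, miR-634 input lay above miR-NC input and miR-634 RIP below miR-NC RIP, but the input change of 0.24 did not pass the test (adjusted p = 0.0613). The RIP change was -0.26 ± 0.07 (adjusted p = 0.0135) and -0.02 when centered on all probes. Its fold change of enrichment was -0.50 ± 0.10 (adjusted p = 0.00427), no longer called when centered (-0.24, adjusted p = 0.0783) and 0.55 on the spike-in scale.

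BCL2L11 encodes BIM, the BH3-only protein that can both activate BAX and occupy pro-survival members, and it had the highest enrichment of the 10 in miR-NC cells. The main probe (NM_138621) read -1.36 and -1.45 in input and 1.18 and 1.03 in RIP with miR-NC, and with miR-634 it was -1.62 and -1.51 in input and 0.06 and 0.03 in RIP. RIP lay far above input in both kinds of cells on this scale, and the miR-634 RIP arrays lay well below the miR-NC RIP arrays. Enrichment in miR-NC cells was 2.51 ± 0.07, or 5.69-fold, above that of 98.9% of all probes, and in miR-634 cells it was 1.61 ± 0.07, or 3.05-fold. On the spike-in scale the enrichments were 0.063 and 0.21, neither called (adjusted p = 0.756 and 0.304). The RIP change was -1.06 ± 0.07 (adjusted p = 2.38e-05), with an input change of -0.16 ± 0.07 (adjusted p = 0.183). Its fold change of enrichment of -0.90 ± 0.10 (adjusted p = 0.00036) stayed called when centered on all probes, at -0.64 (adjusted p = 0.025), but became 0.15 on the spike-in scale (adjusted p = 0.643).

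Both dimmer BCL2L11 probes belong to another transcript (NM_207002) and differed from each other. The first read -3.04 and -3.05 in miR-NC input and 0.01 and -0.05 in the matching RIP, against -3.10 and -3.01 in input and -1.32 and -1.43 in RIP after miR-634, an enrichment of 8.11-fold falling to 3.21-fold. The second read -2.95 and -2.94 in input and -2.06 and -2.19 in RIP with miR-NC, and with miR-634 it was -3.08 and -2.97 in input and -2.75 and -2.59 in RIP, an enrichment of 1.77-fold falling to 1.28-fold. The fold changes of enrichment were -1.34 and -0.46, so all 3 probes pointed the same way on this scale while their sizes differed. Their input changes were -0.01 and -0.08, neither called (adjusted p = 0.939 and 0.528).

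Split by RNA pool, more members were called in RIP than in input, as were more of all probes (76.0% and 18.2%). For MCL1, though, the input change (0.31) was larger in size than the RIP change (-0.22). For PMAIP1 these were nearly equal in size (0.24 and -0.26). In RIP, 3 members rose and 6 fell, beside 76.0% of all probes called, 27.3% higher and 48.6% lower, and the median of both the 10 members and all probes was -0.24. Centered on all probes, 4 members rose, BBC3 being the added one at 0.29 (adjusted p = 0.00633), and BAX, BAD and BCL2L11 fell, beside 6210 higher and 5671 lower over all probes. On the spike-in scale 7 rose and 0 fell, beside 9903 higher and 774 lower over all probes. In input, 2 members rose (MCL1 and BAX) and 0 fell by limma, beside 18.2% of all probes called, 8.42% higher and 9.83% lower. At an unadjusted p below 0.05 limma counted 5 members higher and 0 lower in input. Without a count over all probes at that threshold, this does not show that the members differed from the array. The methods' t-test after Benjamini-Hochberg adjustment called 0 members in either direction, beside 41 higher and 70 lower over all probes. Input median was 0.11 over the 10 members and -0.02 over all probes.

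**Figure D3:**
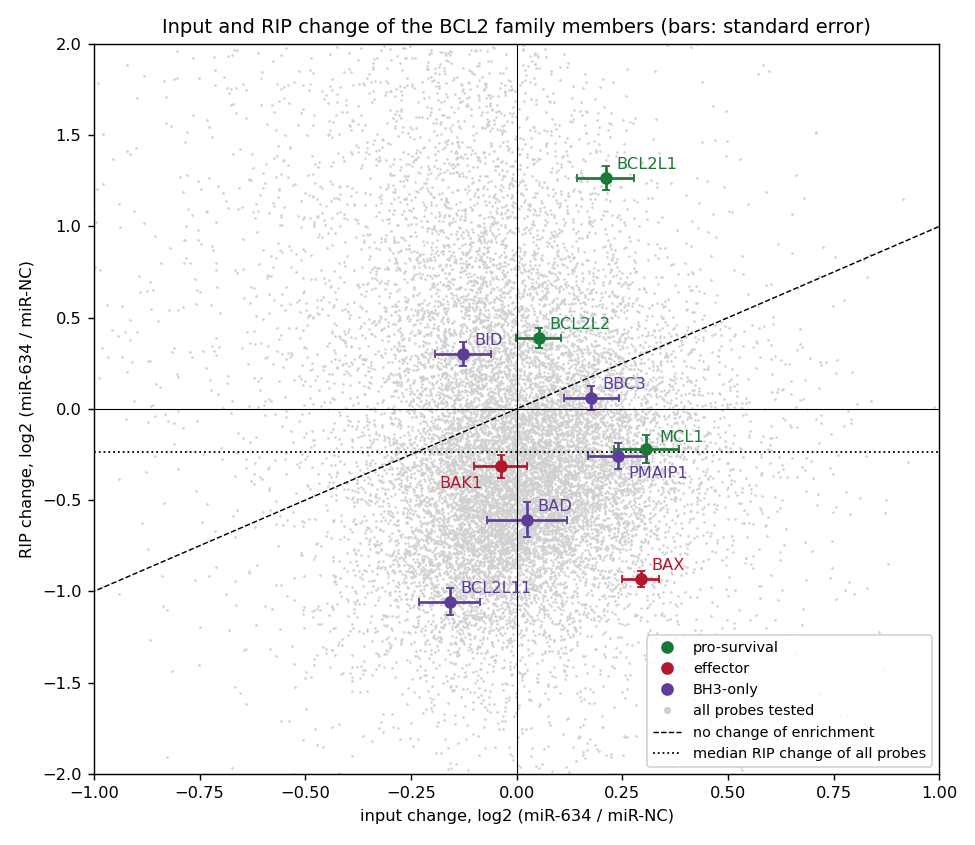
Input change (x axis) against RIP change (y axis) from miR-NC to miR-634, both log2, with standard errors, for the 10 members over all probes tested; the dashed line marks equal change and the dotted line the median RIP change of all probes, and 625 probes lie outside the axes. BCL2L1 sits at 0.21 and 1.26, BAX at 0.29 and -0.93, and BCL2L11 at -0.16 and -1.06; spike-in scaling moves all points up and to the left together.

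Enrichment itself was uneven across the family. In miR-NC cells 7 members were above input and 2 below (BCL2L2 and BAD), beside 77.5% of all probes called, 36.3% higher and 41.1% lower, and the members' median was 0.82 against -0.06 over all probes. In miR-634 cells 7 were above and 3 below, with BAX joining BCL2L2 and BAD, beside 82.5% of all probes called, 35.8% higher and 46.7% lower. There the members' median was 0.89 against -0.15 over all probes. On the spike-in scale these counts became 0 above and 9 below with miR-NC, and 0 above and 7 below with miR-634, where all probes gave 96 above and 16418 below, and 1061 above and 14005 below. Among BH3-only members, enrichment in miR-NC cells ran from -0.55 for BAD to 2.51 for BCL2L11.

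**Figure D4:**
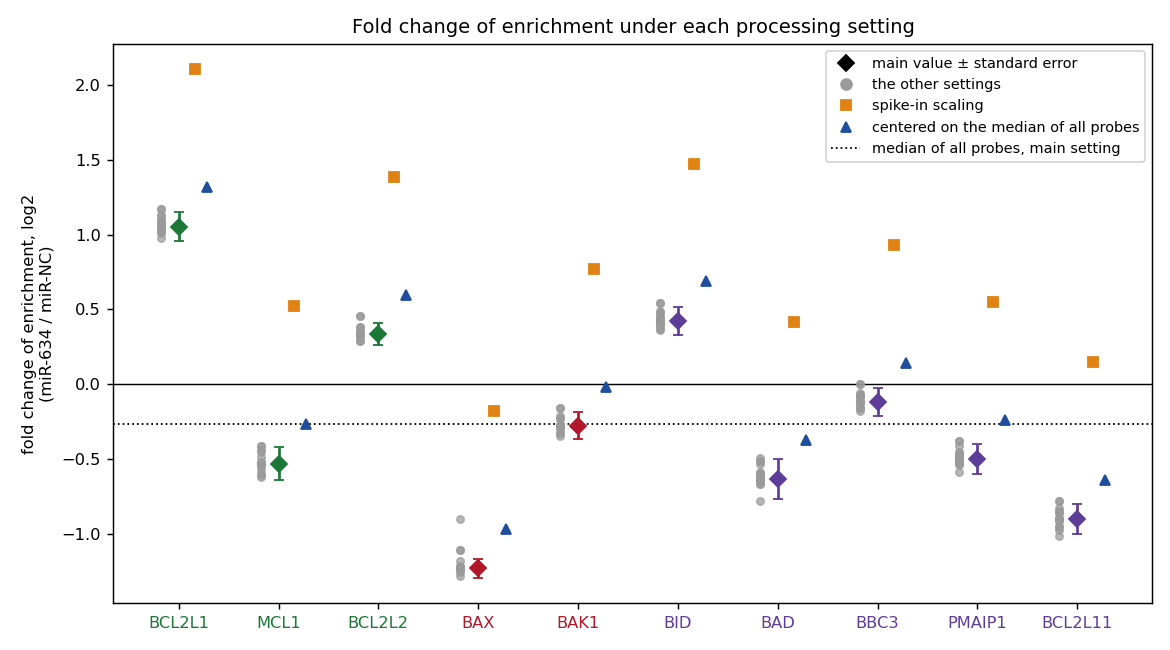
Fold change of enrichment (log2, miR-634 over miR-NC) of each member under the main setting (diamonds with standard error), spike-in scaling (squares), centering on the median of all probes (triangles) and the other settings (gray points). BCL2L1, BCL2L2 and BID were above 0 and BAX below 0 under every setting plotted; MCL1, BAK1, BAD, BBC3, PMAIP1 and BCL2L11 were above 0 on the spike-in scale, and BBC3 also when centered.

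Of 13 other BCL2 family genes, 11 were measured, and 3 were higher, 3 lower and 5 not called in the fold change of enrichment, with a median of 0.02, beside the 68.4% of all probes called (24.9% higher and 43.5% lower). BCL2 itself was well above background on at most 6 arrays and BCL2L14 on none. BOK, an effector-like relative of BAX and BAK, rose 5.09-fold (2.35 ± 0.10, adjusted p = 6.89e-06). The BH3-only genes HRK and BIK rose 2.89-fold (adjusted p = 0.00026) and 1.90-fold (adjusted p = 6e-05), and these 3 rises were kept in every setting, spike-in scaling included. BCL2L15 was at 0.481-fold (adjusted p = 0.00343), a fall not called on the spike-in scale. In input 2 of the 11 were higher, BCL2L13 by 0.33 and BNIP3 by 0.25, and 2 were lower, HRK (-0.46) and BOK (-0.40), beside 18.2% of all probes called. Each of these 4 input calls was lost without 3 or more of the 8 arrays, taken 1 at a time.

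Downstream of the family, 12 of 13 genes of the mitochondrial outer membrane and apoptosome were measured (APAF1 was not), and 6 were higher, 5 lower and 1 not called in the fold change of enrichment, with a median of 0.01, beside the same 68.4% of all probes called. VDAC1 and VDAC2, the channels of the outer membrane, rose 2.37-fold (adjusted p = 1.19e-05) and 2.32-fold (adjusted p = 2.2e-05), and both stayed called higher in every setting. CASP9, the initiator caspase of the apoptosome, rose 2.0-fold (adjusted p = 0.000712). DIABLO, an inhibitor of IAP proteins released from mitochondria, was at 0.468-fold (adjusted p = 0.000643), but its probes disagreed, with a mean over both of about 0 (adjusted p = 0.957), and it was not called on the spike-in scale. In input, VDAC2 fell by 0.41 (adjusted p = 0.00446) and VDAC1 by 0.21 (adjusted p = 0.024), while HTRA2, a mitochondrial protease, rose by 0.43 (adjusted p = 0.00653). The VDAC1 and HTRA2 input calls were lost without some single input arrays and on the spike-in scale.

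Among 12 genes that regulate family members, 10 were measured, and 4 were higher, 2 lower and 4 not called in the fold change of enrichment, with a median of 0.22, again beside 68.4% of all probes called. YWHAB, a 14-3-3 protein that binds phosphorylated BAD, rose 2.92-fold (adjusted p = 1.1e-05). FBXW7, which marks MCL1 for degradation, rose 1.96-fold (adjusted p = 0.000462), with a RIP change of 0.17 that was not called (adjusted p = 0.0988) and a lower input, and missed the threshold by the methods' t-test (adjusted p = 0.0534). GSK3B, the kinase that primes MCL1 for it, rose 1.48-fold (adjusted p = 0.000333). DYNLL2, which holds BMF to the cytoskeleton, was at 0.631-fold (adjusted p = 0.00179) and above 1 on the spike-in scale. In input, beside 18.2% of all probes called, 0 regulators were higher and 3 lower by limma: FBXW7 by -0.80 (adjusted p = 0.00256), YWHAB by -0.51 (adjusted p = 0.00301) and the MCL1 deubiquitinase USP9X by -0.43 (adjusted p = 0.0329), the last lost without any 1 of 5 arrays.

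YWHAB, FBXW7, BOK, HRK, VDAC1 and VDAC2 were thus higher in enrichment, of which the input is the denominator, and lower in input. So was the A431 marker CDH1, at 1.40 and -1.02. None of the 10 members was called lower in input, beside 9.83% of all probes, so none of them could show both. The genes above were named because their called changes were among the largest of their lists, so they are no comparison group. The share of all probes with both calls was not counted. BID came nearest, with a called rise of enrichment and an input change of -0.13 that was not called. BCL2L1 and BCL2L2 had input changes above 0, neither called.

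**Figure D5:**
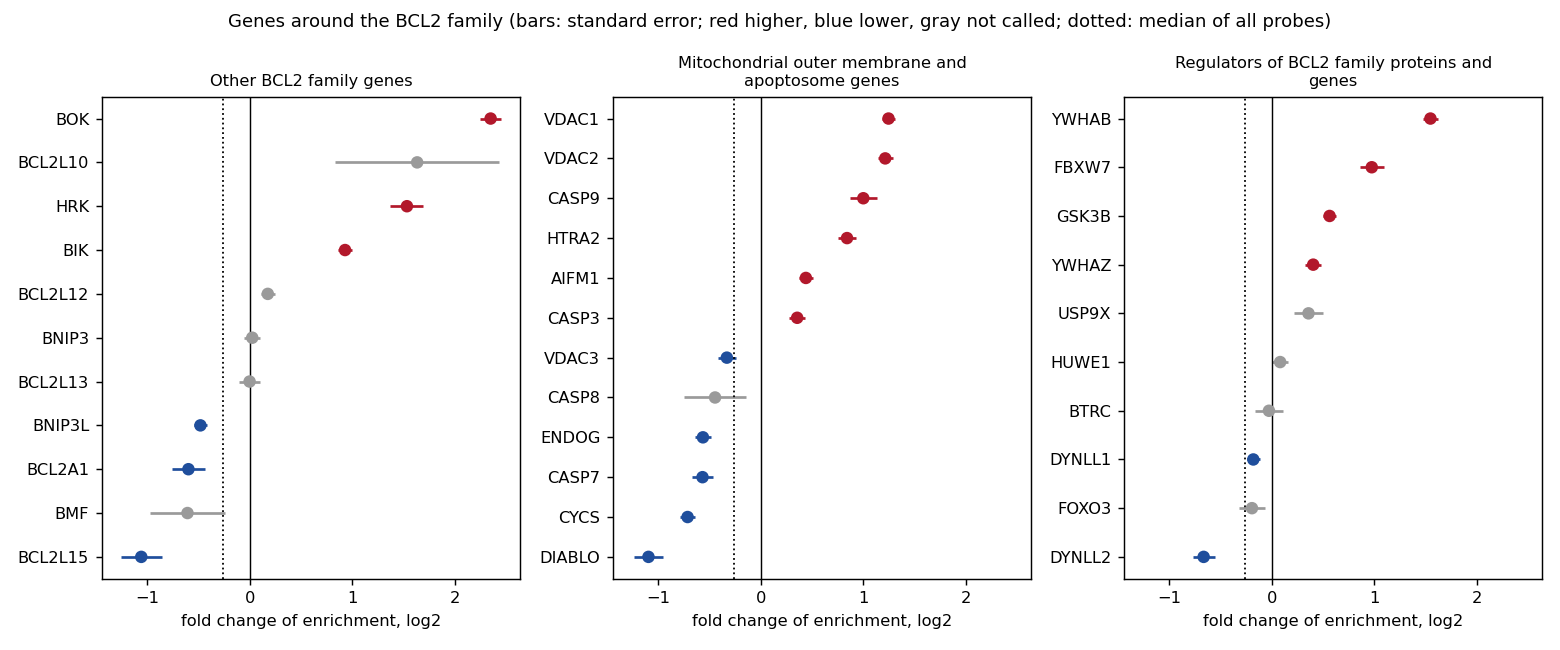
Fold change of enrichment (log2, with standard error) of genes in 3 lists around the BCL2 family; red points were called higher, blue lower and gray not called by limma, and the dotted line is the median of all probes. BOK stood highest at 2.35 and DIABLO lowest at -1.10; on the spike-in scale the red points stayed above 0 for the genes named in the text, and DYNLL2 moved above 0.

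Compared by shape over the 8 arrays, the genes whose profile lay nearest to that of BCL2L1 among 10958 others were NDOR1, KRT16 and SPON2, at distances of 0.132, 0.177 and 0.179 (the square root of the summed squared differences of log2 levels, each gene centered on its own mean). The arrays are few and the profile is dominated by that 1 group, so the order among these genes is descriptive.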

How the data were processed

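RNA from AGO2 immunoprecipitation and input RNA of A431 cells, 8 samples in 4 groups of 2 as the labels give them, were hybridized to Agilent one-color 8x60K arrays. The deposited scanner files hold background-subtracted intensity per spot, written by Feature Extraction 12.0.1.1 per the file headers (9.1 per the labels). The authors also deposited log2 values, which match the log2 intensities after a shift to the 75th percentile of all probes and centering of each probe on its median (Pearson r of at least 0.999998 on each array); these served as an alternative, and their unshifted scale is unknown.

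Here, spots marked as outliers were dropped and the rest averaged per probe. The log2 value was then expressed relative to the 75th percentile of the array, taken over 16808 probes that were well above background on every array (in at least 0.5 of their spots). Probes were named through RefSeq accessions, of which 31104 of 33080 matched. limma 3.58.1 in R 4.3.3 was fitted to the 4 group means with moderated variances, p-values were adjusted by Benjamini-Hochberg over all 16808 probes, and 0.05 was the threshold; all tests were two-sided. No spot carries a read depth, so the number of arrays limits the precision.

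All members are named with every probe. Of each further list (other family genes, mitochondrial outer membrane and apoptosome genes, regulators) the counts are given, with up to 4 called genes of largest change in the fold change of enrichment and in input. The members and lists were chosen with earlier results of these data known, so their counts are descriptions. Alternatives were other background corrections (normexp with an offset of 50), scalings, filters, probe summaries, tests and left-out arrays. Coordinates of the 10 genes are not given because the array design and the reference use different builds.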

Additional observations from a re-analysis of the deposited data

Results flagged for a closer look

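BAX stood out because its RIP/input ratio was above 1 on both miR-NC pairs of arrays (1.37 and 1.39) and below 1 on both miR-634 pairs (0.599 and 0.581), and the difference between the 2 kinds of cells, -1.23 on the log2 scale, passed the test of the difference itself (limma, adjusted p = 1.19e-05). The dimmer BAX probe gave ratios of 1.55 and 1.43 against 0.872 and 1.15, and on the spike-in scale both kinds of cells lay below 1 and the difference was not called.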

How the results depend on the processing

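Scaling sets the zero of the RIP comparisons, and 2 arrays a group limit the precision. Leaving out 1 array at a time leaves 1 array in its group, so members called in these fits are not counted here. In them, BAD input ran from -0.0081 to 0.056 and BBC3 RIP from -0.0012 to 0.12. Of the fold changes, 21 settings without spike-ins kept BCL2L1 between 0.98 and 1.31, BAX between -1.28 and -0.90 and BCL2L11 between -1.01 and -0.64, all called.

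On the spike-in scale, the fold change of enrichment was 0.52 for MCL1, 0.77 for BAK1, 0.42 for BAD, 0.93 for BBC3, 0.55 for PMAIP1 and 0.15 for BCL2L11 (5 higher, 0 lower). Enrichment in miR-NC cells was -1.01 for MCL1, -1.98 for BAX, -1.45 for BAK1, -1.80 for BID, -0.77 for BBC3 and -1.08 for PMAIP1 (0 higher, 9 lower). Enrichment in miR-634 cells was -0.43 for BCL2L1, -0.49 for MCL1, -0.67 for BAK1, -0.33 for BID and -0.53 for PMAIP1 (0 higher, 7 lower). Input change was -0.033 for BCL2L1, -0.19 for BCL2L2, -0.22 for BAD, -0.067 for BBC3 and -0.0044 for PMAIP1 (0 higher, beside 31 of 16808 probes). RIP change was 0.58 for MCL1, 0.49 for BAK1, 0.20 for BAD and 0.55 for PMAIP1 (7 higher, 0 lower). The shift of all probes is built into this scaling; its cause was not tested.

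Centering on all probes left 2 lower in the fold change of enrichment and 3 in RIP, beside 4653 and 5671 of 16808 probes. BBC3 was then at 0.14 and the MCL1 RIP change at 0.015. Shifting by the 75th percentile over all probes gave 3 lower in RIP, beside 6054 of 16808 probes. It gave 0.00011 for BBC3 and 0.018 for BAK1 input. With the authors' values 3 were lower in RIP, beside 6069 of 16808 probes, and these 2 values were 0.00061 and 0.017. A filter on the input arrays left 1 member higher in input, beside 661 of 23569 probes. No filter left 0, beside 68 of 58179 probes. The methods' t-test with Benjamini-Hochberg adjustment called 1 higher and 3 lower in the fold change of enrichment, beside 2973 and 4331 over all probes. In RIP it called 2 higher and 2 lower, beside 3144 and 4704. It called 0 members in the enrichment of either kind of cells and in input, where few of all probes were called. Over all probes it gave 4 higher and 3 lower in miR-NC enrichment, 0 and 0 in miR-634 enrichment, and 41 and 70 in input. At an unadjusted p below 0.05 this t-test counted 3 members higher and 4 lower in the fold change of enrichment. The counts were 7 and 0 in miR-NC enrichment, 5 and 2 in miR-634 enrichment, 3 and 2 in input and 2 and 2 in RIP. No count over all probes was made at that threshold, so these counts do not show that the members differed from the array. Where RIP and input both enter, the t-test matched their arrays by replicate number. It had 1 degree of freedom in the enrichments and 2 in the other comparisons, so few calls could pass. The paper names a t-test for its statistics but chose RIP-chip genes by a fold change cutoff.

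The replicate numbers did not pair the samples (correlations of deviations from -0.03 to 0.08). With the replicate block in limma, 1 member was higher in input, beside 1192 of 16808 probes. MCL1 input (adjusted p = 0.0691) and MCL1 RIP (adjusted p = 0.0585) lost their calls, and no other member's call changed.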
